A study of Mus musculus with 8 samples.

Results

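*Apob*, *Apoe* and 6 other genes that build, edit, export or take up lipoproteins were examined in CD11b+ brain cells of control and CSF1 OE mice. These 8 genes, of 20308 gene symbols in the count files, are *Apob*, *Apoe*, *Apobec1*, *Mttp*, *Abca1*, *Abcg1*, *Lrp1* and *Nr1h3*. They were selected on measured values of these same mice, in which *Apob* was lower and *Apoe* higher in CSF1 OE, so that their levels and fold changes are given as a description, without p-values. Where one of them is said to be called or not, that too only describes the contrast that chose it. The 4 CSF1 OE mice carry a TRE/tTA transgene from which a subset of GFAP+ cells makes too much secreted CSF1, the growth factor on which microglia depend. The 4 control mice share their background, F1 animals of C57Bl/6 and CD1, and what part of the transgene system they carry is not given in the sources used here. All 8 mice were aged p14 or p15, and cells of the right hemisphere were enriched with CD11b beads after myelin removal in Percoll. Microglia carry CD11b on their surface, as do other myeloid cells, and each mouse gave 1 RNA library.

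Lipoproteins are particles of lipid held in solution by apolipoproteins. *Apob* encodes the large structural protein around which liver and intestine assemble their triglyceride-rich particles, and it stays with its particle from secretion to uptake. *Apoe* encodes an exchangeable apolipoprotein that is the main one of the brain, where astrocytes and microglia make it and endocytic receptors take it up. Liver X receptors, which sense oxidised cholesterol, are known to induce *Apoe* and the lipid exporters *Abca1* and *Abcg1*.

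Total counts ran from 12908144 to 15475465 in control and from 12053259 to 14356532 in CSF1 OE mice. The 8 markers of microglia summed to between 19532 and 33779 CPM in controls and between 25837 and 36659 CPM in CSF1 OE mice, where CPM is the count of a gene scaled by the TMM-normalized size of its library. Control mouse 1934 had the lowest microglial sum. *Csf1* itself lay between 139 and 364 CPM in controls and between 167 and 400.1 CPM in CSF1 OE mice. These groups overlapped, and since the transgene is driven in GFAP+ cells, which the beads do not select, *Csf1* in this eluate does not check the genotype labels.

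All 8 genes passed edgeR's filter on low counts, which kept 13407 genes. A gene was called when its Benjamini-Hochberg adjusted p was under 0.05 and its fold change under 0.7 or over 1.43. Of the 8 genes, 1 (*Apob*) was called lower, where 0.0522% of all genes tested were called lower, and 0 were called higher, where 0.388% were. The 4 CSF1 OE values lay above the 4 control values in 2 of the 8 (*Apoe* and *Apobec1*), against 6.84% of all genes tested. They lay below them in 1 of the 8 (*Apob*), against 3.45%. Since this contrast chose the genes, nothing is read from these counts. The groups overlapped in the other 5, *Mttp*, *Abca1*, *Abcg1*, *Lrp1* and *Nr1h3*.

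**Figure D1:**
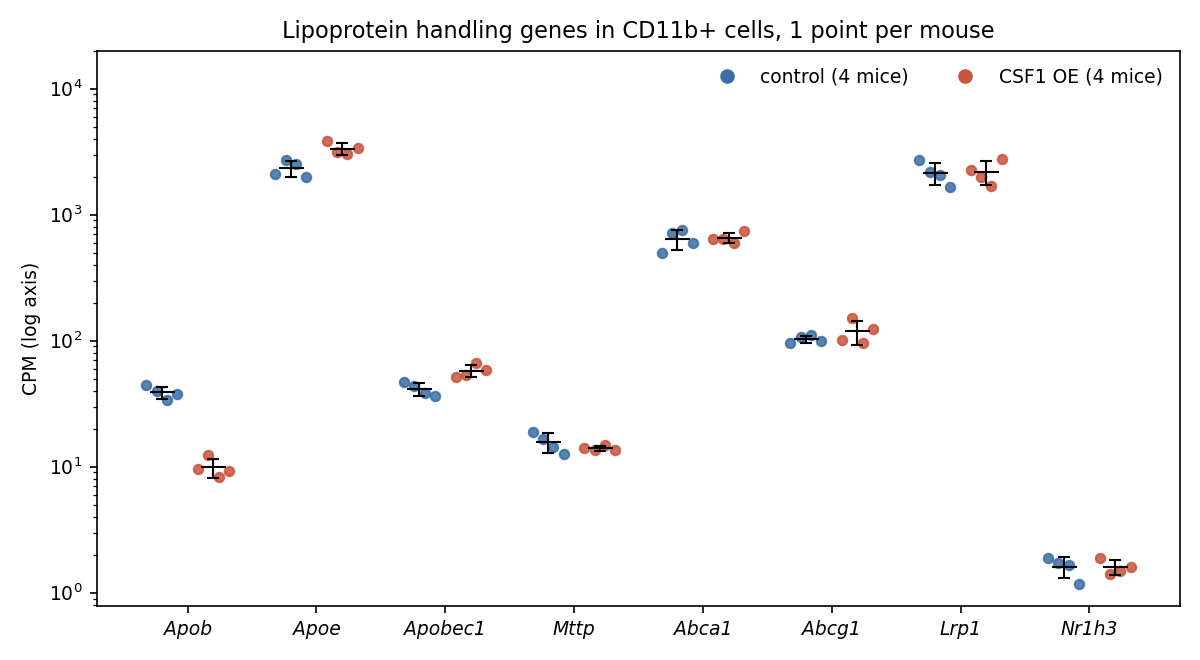
Level of each of the 8 genes in CPM (vertical log axis), with 1 point per mouse, control in blue and CSF1 OE in red, and the mean ± SD of 4 mice in black. *Apob* sits between 34.1 and 44.3 CPM in controls and between 8.32 and 12.3 CPM in CSF1 OE mice, *Apoe* and *Apobec1* are higher in all 4 CSF1 OE mice, and the groups overlap in the other 5 genes.

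*Apob* (ENSMUSG00000020609.14, GRCm38 chromosome 12 from 7977648 to 8016835, plus strand) has a transcript of 13934 bases in 29 exons. It measured 44.3, 39.6, 34.1 and 38.0 CPM in control mice 1827, 1872, 1874 and 1934. In CSF1 OE mice 1931, 1932, 1936 and 2019 it measured 9.61, 12.3, 8.32 and 9.29 CPM. The highest CSF1 OE value was thus below the lowest control value, and the spread within each group was small beside the distance between them. The means were 39.0 ± 4.21 CPM and 9.89 ± 1.73 CPM (SD, n = 4 each), which is -1.98 on the log2 scale with a standard error of 0.14, or 3.94-fold lower in CSF1 OE. These values rest on 451 to 659 counts per control library and 105 to 168 counts per CSF1 OE library. By log2 fold change, 8 of the 13407 genes tested had a lower value than *Apob*.

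The CSF1 OE libraries still held *Apob* RNA, and 5 of 6 hepatocyte markers were under 1 CPM in every library. The sixth, *Alb* (serum albumin), measured between 2.34 and 3.45 CPM over the 8 mice, and its groups overlapped. In bulk RNA such as this, fewer cells of a type that makes *Apob* and less *Apob* RNA per cell cannot be told apart.

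*Apob* mRNA is the classical substrate of C-to-U editing by the deaminase that *Apobec1* encodes, which turns a CAA codon for glutamine into a stop codon and so shortens the protein. That site is shown because it links these 2 genes, whose values separated the genotypes in opposite directions here. In GRCm38 it lies at chr12:8008029-8008088 (plus strand), in the coding sequence of exon 26 of 29 of transcript ENSMUST00000037811.12. The first capitals mark codon 2179, counted from the start codon, whose C at position 8008054 is the base that is edited. The second capitals mark TGATCAGTA, part of the mooring sequence that the editing complex reads, which starts 5 bases after that C and was found 1 time in the transcript on its sense strand.
Apob editing site: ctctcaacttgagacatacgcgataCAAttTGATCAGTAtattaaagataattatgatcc
Counts per gene do not hold the bases read at this site, so editing was not measured here.

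*Apobec1* (ENSMUSG00000040613.14, chromosome 6 from 122577792 to 122602444, minus strand) measured 47.2, 43.9, 38.2 and 36.5 CPM in control mice 1827, 1872, 1874 and 1934. In CSF1 OE mice 1931, 1932, 1936 and 2019 it measured 51.8, 53.6, 66.2 and 58.9 CPM. All 4 CSF1 OE values were higher than every control value, by a log2 fold change of 0.48 (standard error 0.11, 1.39-fold). Its known RNA-binding partners differed from each other. *A1cf*, which encodes the complementation factor first found in liver, had 0 counts in all 8 libraries, which allows up to between 0.177 and 0.266 CPM (3 counts per library, for counting error only). *Rbm47*, which encodes another cofactor of editing, measured 29.0 ± 6.85 CPM in controls and 32.8 ± 7.47 CPM in CSF1 OE mice, and its groups overlapped.

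*Mttp* encodes the microsomal transfer protein that loads lipid onto nascent *Apob* protein in the endoplasmic reticulum. The start of the gene overlaps that of *Trmt10a* on the other strand, whose reads could not be told apart if strand was not used. It measured 19.0, 16.5, 14.3 and 12.7 CPM in control mice and 14.1, 13.6, 14.9 and 13.5 CPM in CSF1 OE mice, in the same order of animals. The CSF1 OE mice lay inside the control range (log2 fold change -0.15, standard error 0.14). On the scale of TPM, which divides counts by the annotated transcript length and was computed here without TMM, the groups of *Mttp* separated narrowly, from 9.83 to 12.3 in control and from 8.51 to 9.79 in CSF1 OE mice.

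*Apoe* (ENSMUSG00000002985.16, chromosome 7 from 19696109 to 19699188, minus strand) measured 2100.3, 2693, 2543 and 1994 CPM in control mice 1827, 1872, 1874 and 1934. In CSF1 OE mice 1931, 1932, 1936 and 2019 it measured 3815, 3157, 3017 and 3402 CPM. The groups did not overlap, since the lowest CSF1 OE mouse was above the highest control mouse. The log2 fold change was 0.52 (standard error 0.15), or 1.44-fold higher in CSF1 OE, which is past the fold threshold, but *Apoe* was not called.

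The lipid exporters did not separate the genotypes. *Abca1*, which passes cholesterol and phospholipid to lipid-poor apolipoproteins, measured 501, 717, 754 and 596 CPM in control mice and 646, 640.1, 591 and 742 CPM in CSF1 OE mice (log2 fold change 0.03, standard error 0.14). *Abcg1*, which passes cholesterol on to particles already formed, measured 96.7, 106, 111 and 98.8 CPM in control mice and 102, 153, 95.8 and 124 CPM in CSF1 OE mice (log2 fold change 0.20, standard error 0.14). The spread of *Abcg1* was wider in CSF1 OE, with the lowest and the highest of the 8 values both in that group.

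The endocytic receptor and the liver X receptor also overlapped. *Lrp1*, which takes up *Apoe* particles and many other ligands, measured 2705, 2188, 2065 and 1666 CPM in control mice and 2275, 2006, 1679 and 2790.4 CPM in CSF1 OE mice (log2 fold change 0.02, standard error 0.20). *Nr1h3*, which encodes liver X receptor alpha, lay between 1.18 and 1.88 CPM in controls and between 1.40 and 1.89 CPM in CSF1 OE mice, which rests on 18 to 28 counts in a library (log2 fold change -0.02, standard error 0.25). That standard error is not a limit of detection, and a difference of *Nr1h3* somewhat larger than it could also have gone undetected at this depth.

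Levels of different genes can be compared only per length, as TPM. In control mice *Apoe* was the most abundant of the 8, with 4579 ± 603 TPM (SD, n = 4), rank 17 of the 19325 symbols with an annotated length. *Lrp1* followed with 397 ± 51.8 TPM, *Abca1* with 174 ± 34.0 TPM, *Apobec1* with 50.4 ± 2.84 TPM and *Abcg1* with 49.0 ± 4.64 TPM. The lowest were *Mttp* with 10.8 ± 1.15 TPM, *Apob* with 7.73 ± 0.688 TPM and *Nr1h3* with 2.27 ± 0.280 TPM. Of these neighbours in rank, *Apobec1* and *Abcg1* overlapped over the control mice and the others did not. In CSF1 OE mice *Apob*, at 1.81 ± 0.336 TPM, had a lower mean than *Nr1h3*, at 2.07 ± 0.232 TPM. Their values overlapped over these mice, from 1.56 to 2.30 TPM for *Apob* and from 1.86 to 2.40 TPM for *Nr1h3*.

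Ratios within a mouse do not depend on the scaling between libraries. *Apoe* RNA exceeded *Apob* RNA by 469 to 738 times per length in control mice and by 2531 to 3930 times in CSF1 OE mice. *Apobec1* exceeded *Apob* by 5.92 to 6.89 times per length in control and by 26.7 to 49.0 times in CSF1 OE mice. *Apob* had 0.662 to 0.849 times the TPM of *Mttp* in control mice and 0.159 to 0.258 times in CSF1 OE mice. These 3 ratios did not overlap between the genotypes. For *Apoe* and *Apobec1* over *Apob* this was certain, since *Apob* was lower and the other gene higher in every CSF1 OE mouse than in any control mouse. For *Apob* over *Mttp* the choice of *Apob* fixes it in part. The ratio of *Rbm47* to *Apobec1*, which leaves *Apob* out, did overlap, with 0.235 to 0.397 in control and 0.165 to 0.361 in CSF1 OE mice.

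**Figure D2:**
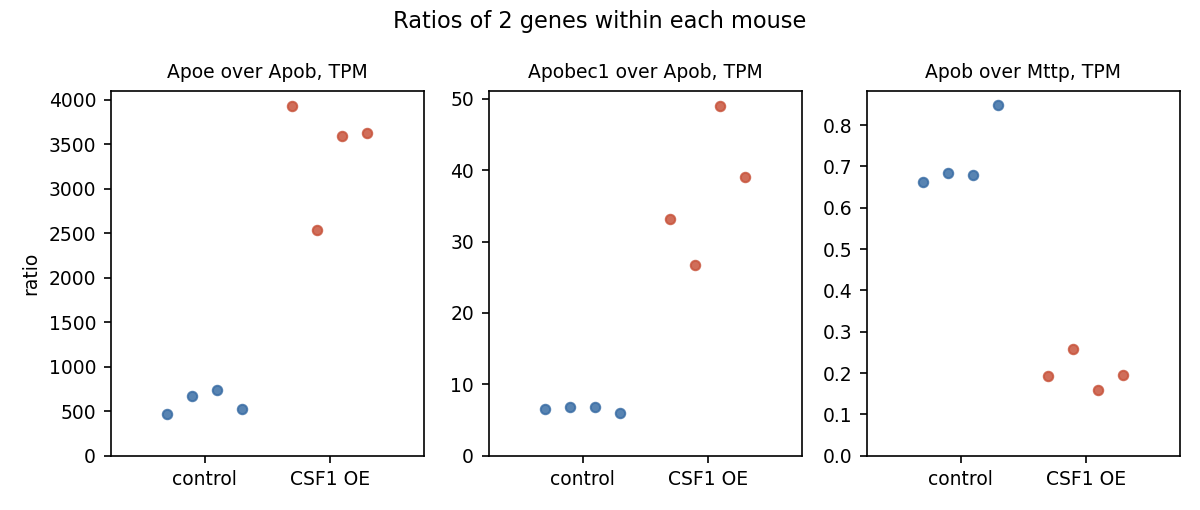
Ratio of 2 genes within each mouse (vertical axes, no unit, starting at 0), with 1 point per mouse, control in blue and CSF1 OE in red. *Apobec1* over *Apob* stays between 5.92 and 6.89 in the 4 control mice and spreads from 26.7 to 49.0 in the 4 CSF1 OE mice. That these groups separate follows from the levels of the 2 genes themselves.

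The labels name no batch, and animal numbers are the only order they give. The numbers from 1931 to 1936 hold 1 control and 3 CSF1 OE mice and the other numbers 3 control and 1 CSF1 OE mouse. *Apob* was lower in CSF1 OE within both ranges, by a log2 difference of -1.92 in the first and -2.06 in the second. *Apoe* was higher within both, by 0.73 and 0.48, and so was *Apobec1*, by 0.64 and 0.46. For these 3 genes the direction within a range was fixed in advance, since their groups did not overlap over all 8 mice. The split is thus no check of it. *Mttp* differed by 0.16 in the first range and by -0.28 in the second, and *Nr1h3* by 0.38 and -0.13. *Lrp1* was higher in CSF1 OE than in every control mouse of the same range, by 0.24 and 0.28, although its groups overlapped over all 8 mice. The nearest CSF1 OE and control values were close, 1679 and 1666 CPM in the first range and 2790.4 and 2705 CPM in the second. *Abcg1* differed by 0.21 and 0.25 and *Abca1* by 0.070 and 0.20, and both overlapped in the first range, while in the second *Abcg1* was higher and *Abca1* overlapped.

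*Apoe* stands on chromosome 7 beside *Apoc1*, *Apoc4* and *Apoc2*, which encode small exchangeable apolipoproteins. These neighbours were singled out after their values had been seen. *Apoc1*, at chromosome 7 from 19689481 to 19692660, measured 1.28, 2.42, 1.97 and 2.60 CPM in control mice and 5.83, 3.82, 4.77 and 3.36 CPM in CSF1 OE mice. All 4 CSF1 OE values were higher. On the log2 scale they differed by 1.10 (standard error 0.29), which did not pass the test of edgeR (adjusted p = 0.116, and from 0.0182 to 0.312 over the alternatives). *Apoc4* was below the filter on low counts, with 0 or 1 count in each control library and from 2 to 7 counts in each CSF1 OE library. *Apoc2* was also below it, with 5 to 10 counts in control and 7 to 11 counts in CSF1 OE libraries, and its groups overlapped in CPM. The annotation holds a read-through gene model across *Apoc4* and *Apoc2*, so how their few reads were divided is uncertain.

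**Figure D3:**
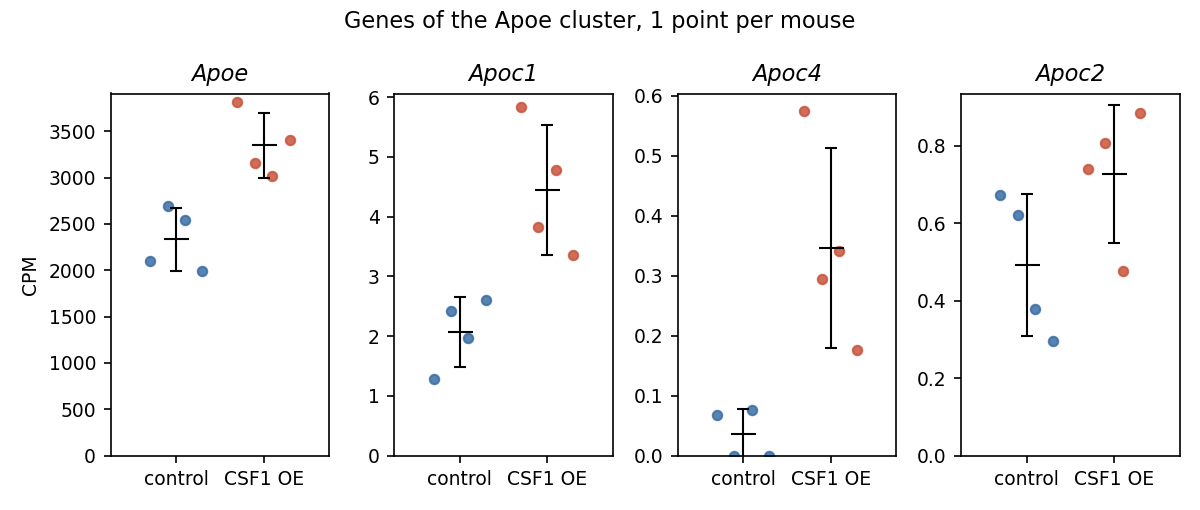
Level of *Apoe* and its chromosome 7 neighbours *Apoc1*, *Apoc4* and *Apoc2* in CPM (vertical axes start at 0 and differ between panels), with 1 point per mouse and the mean ± SD of 4 mice in black. *Apoe*, *Apoc1* and *Apoc4* each have all 4 CSF1 OE points above the highest control point, while *Apoc2* overlaps, and *Apoc4* rests on at most 7 counts per library.

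Around the 8 genes stood a list of 78 others of the pathway in 8 roles, of which 77 were in the files and 58 passed the filter. By edgeR 0 of the 58 were called in either direction, and 11 had an unadjusted p under 0.05, 6 higher and 5 lower. Among all 13407 genes tested, 59 were called and 2214 had an unadjusted p under 0.05. DESeq2 called 3 of the 58 (*Apoc1*, *Npc2* and *Lcat*), which is 5.17% of them, beside 3.10% of all genes tested. With limma's trend method 1 (*Npc2*) was called, or 1.72%, beside 0.783%. With animal number range as a further term edgeR called 8, or 13.8%, beside 9.50%, and 7 of these were lower, or 12.1%, beside 7.24%. The log2 fold change was above 0 in 29 and below 0 in 29, with a median of -0.0075, beside -0.034 over all genes tested. Of all genes tested, 6002 were above 0 and 7405 below 0. The groups did not overlap in 4, namely *Apoc1* and *Npc2*, with higher values in CSF1 OE (3.45% of the 58, beside 6.84% of all genes tested), and *Lsr* and *Lcat*, with lower values (3.45%, beside 3.45%).

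Among the 13 other apolipoproteins 3 passed the filter. *Clu* (clusterin) measured 149 ± 25.6 CPM in controls and 101 ± 51.2 CPM in CSF1 OE mice (log2 fold change -0.56, standard error 0.31, adjusted p = 0.399 from edgeR). Of the others, *Apoa4* and *Apoa5* had 0 counts in every library, and *Apoa1*, the main apolipoprotein of high density lipoprotein, had at most 3. In particle assembly and *Apob* editing, 6 of 11 were tested and their log2 fold changes lay between 0.05 and 0.18. The ends were *Sar1b*, a GTPase of the vesicles that carry particles out of the endoplasmic reticulum (0.05, standard error 0.082, adjusted p = 0.791 from edgeR), and *Surf4*, a cargo receptor (0.18, standard error 0.095, adjusted p = 0.383 from edgeR). *A1cf*, *Pla2g12b* and *Mia2* had 0 counts in every library. The annotation behind these counts is not given, so which gene model the symbol *Mia2* covers in them is not known.

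All 4 other lipid export transporters were tested, from *Abcg4* (log2 fold change -0.58, standard error 0.44, adjusted p = 0.544 from edgeR) to *Abca7* (0.16, standard error 0.13, adjusted p = 0.567 from edgeR). Of 17 lipoprotein receptors and regulators 16 were tested, with 5 above and 11 below 0. *Lsr*, a receptor of triglyceride-rich particles that is also a junction protein of endothelial cells, measured 31.4 ± 6.88 CPM in controls and 19.7 ± 6.38 CPM in CSF1 OE mice (log2 fold change -0.67, standard error 0.26, adjusted p = 0.245 from edgeR). The 8 endothelial markers had log2 fold changes below 0 in 8 of 8, beside 7405 of the 13407 genes tested. Lists of other cell types, given below, also had lower mean sums in CSF1 OE. Their sums ran from 787 to 1293 CPM in controls and from 425 to 911 CPM in CSF1 OE mice, and their part in the value of *Lsr* was not tested.

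Of 7 scavenger receptors 6 were tested, with 2 above and 4 below 0. *Olr1*, a receptor of oxidised particles, measured 1.14 ± 0.415 and 2.15 ± 0.771 CPM in controls and CSF1 OE mice (log2 fold change 0.91, standard error 0.38, adjusted p = 0.276 from edgeR). *Cd36*, a receptor of fatty acids and oxidised particles, measured 76.1 ± 17.5 and 53.9 ± 10.9 CPM (log2 fold change -0.50, standard error 0.20, adjusted p = 0.255 from edgeR). Among the lipases and remodelling factors, 8 of 10 were tested, 4 on each side of 0. *Lcat*, which esterifies cholesterol on particles, measured 4.98 ± 1.001 and 2.69 ± 0.683 CPM (log2 fold change -0.89, standard error 0.25, adjusted p = 0.143 from edgeR, from 0.0311 to 0.36 over the alternatives). Hepatic lipase, *Lipc*, was under 1 CPM on average in both groups (log2 fold change 0.32, standard error 0.45, adjusted p = 0.746 from edgeR).

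The partners and targets of the liver X receptors lay on both sides of 0. Of 8 tested, 5 were above and 3 below 0, from *Smpdl3a*, a phosphodiesterase (log2 fold change -0.54, standard error 0.17, adjusted p = 0.188 from edgeR), to *Arl4c*, a small GTPase (0.35, standard error 0.14, adjusted p = 0.253 from edgeR). All 7 genes of intracellular cholesterol handling were tested, with 5 above and 2 below 0. *Npc2*, the lysosomal protein that hands cholesterol to NPC1, measured 493, 537, 469 and 413 CPM in control mice and 788, 630, 731 and 736 CPM in CSF1 OE mice. The groups did not overlap, and its log2 fold change was 0.59 (standard error 0.11). It was not called by edgeR (adjusted p = 0.0558, and from 7.86e-06 to 0.183 over the alternatives). *Ch25h*, which makes an oxysterol, had the lowest value of this role (-0.18, standard error 0.60, adjusted p = 0.900 from edgeR).

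**Figure D4:**
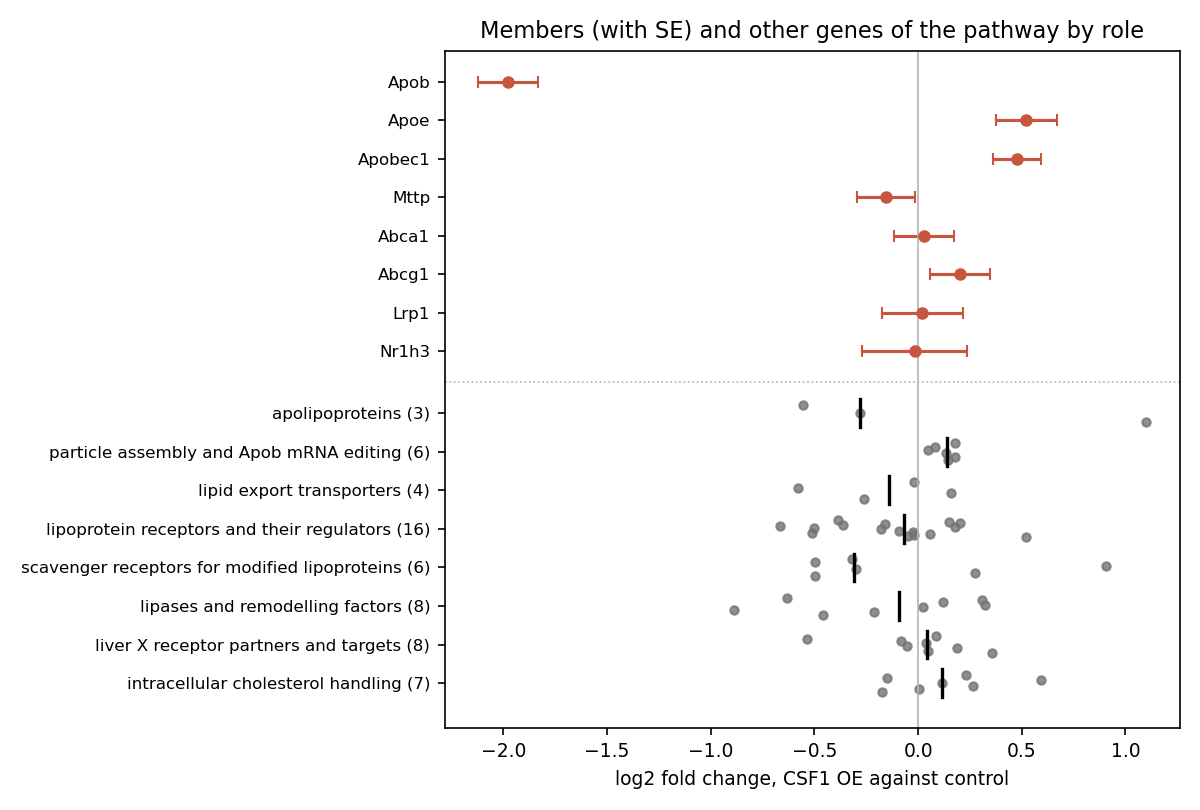
Log2 fold change of CSF1 OE against control (horizontal axis) for the 8 genes with their standard errors in red, and for the 58 other tested genes of the pathway by role in grey, with black bars at the median of each role and the number tested in brackets. *Apob*, at -1.98, lies outside the range of the 58 others, which runs from -0.89 (*Lcat*) to 1.10 (*Apoc1*). Since *Apob* was selected on its fall in this same contrast, nothing is read from that distance.

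Marker lists of 12 cell types were summed in each mouse and set beside *Apob*, *Apoe* and *Apobec1*. The 9 markers of border macrophages, which lie around vessels and in the meninges and also carry CD11b, summed to between 1629 and 2551 CPM in controls and between 1337 and 1974 CPM in CSF1 OE mice, with 8 of 9 below 0. The 5 markers of choroid plexus and ependyma summed to between 3738 and 5058 CPM in controls and between 1472 and 5853 CPM in CSF1 OE mice. Those of red blood cells summed to between 251 and 936 CPM and between 38.5 and 434 CPM, with 5 of 5 below 0. The genotypes overlapped in the sums of all 12 lists. The mean sum in CSF1 OE was 0.738 times that in control for border macrophages and 0.653 times for endothelial cells. It was 0.329 times for red blood cells, 0.693 times for neurons and 0.734 times for choroid plexus and ependyma. For oligodendrocytes it was 0.793 times, for their precursor cells 0.973 times, for mural cells 0.864 times and for astrocytes 0.879 times. For microglia it was 1.01 times, with 4 markers above and 4 below 0. The sums of hepatocytes and blood monocytes were 1.02 and 1.21 times as high. In the monocyte list 3 of 4 tested markers were below 0, with a median log2 fold change of -0.36, and the other, *Plac8*, lay between 4.38 and 12.5 CPM in controls and between 13.8 and 37.7 CPM in CSF1 OE mice. The part of these cells in the levels of *Apob*, *Apoe* and *Apobec1* was not tested.

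**Figure D5:**
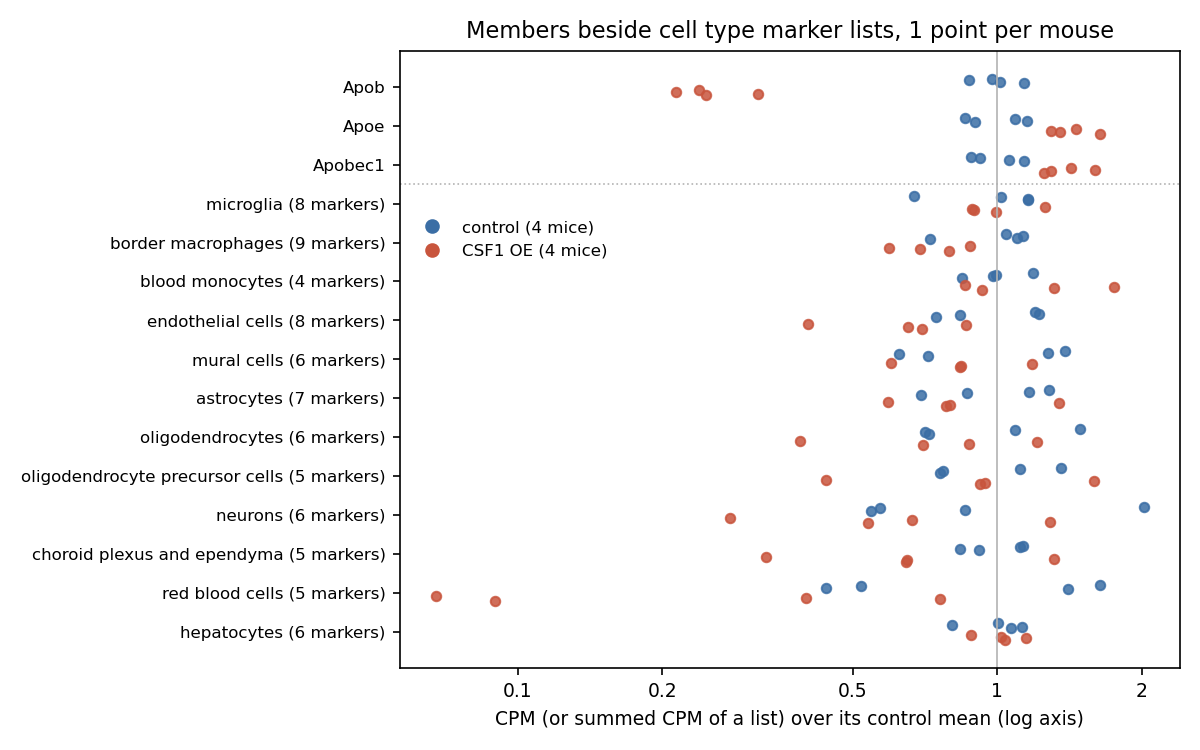
Level of *Apob*, *Apoe* and *Apobec1* and the summed level of each of 12 marker lists, divided by the control mean (horizontal log axis), with 1 point per mouse, control in blue and CSF1 OE in red. The groups overlap in all 12 lists, and among these the widest spread is that of red blood cells.

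The genes whose pattern over the 8 mice was most like that of *Apob* or *Apoe* were sought among 13102 genes with a mean of at least 1 CPM. Likeness was the root mean square difference of log2 CPM, centred on the control mean. It thus depends largely on the size of the fold change, and *Apob* and *Apoe* were selected on theirs. The nearest to *Apob* were *Lgi2* at 0.55, *Zfp454* at 0.56 and *Cd209g* at 0.58, and 0 genes came nearer than 0.2. *Lgi2* measured 11.1 ± 7.70 CPM in controls and 3.29 ± 0.940 CPM in CSF1 OE mice, *Zfp454* 1.52 ± 0.423 and 0.530 ± 0.202 CPM, and *Cd209g* 12.02 ± 3.02 and 5.004 ± 1.76 CPM. For *Apoe*, 131 genes came nearer than 0.2, led by *Plekhf2* at 0.10, *Cryba4* at 0.12 and *Npc2* at 0.13. None of these neighbours of *Apob* or *Apoe* was called by edgeR. Few genes fell as far as *Apob*, so nothing is read from its count of genes under 0.2.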

How the data were processed

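RNA of CD11b+ cells was measured in 1 library per mouse, 4 control and 4 CSF1 OE, grouped by the labels. Per the labels, the authors used bcl2fastq 1.8.4, Bowtie 1.0.0 and RSEM 1.2.7 with mm10. The deposited expected counts of RSEM are not normalized. A deposited signal table holds these values after division by a size factor for each mouse, with 0 columns unmapped. The annotation and strand setting are not given in the sources used here, and a read that fits several genes is divided between them by RSEM.

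Expected counts were rounded and analysed with edgeR 4.0.16 under R 4.3.3 (filterByExpr, TMM, glmQLFit and a two-sided glmQLFTest). The method was tested on simulated data. The common biological coefficient of variation was 0.229. Fold changes are CSF1 OE against control. Their standard errors were derived from that test, as the absolute log2 fold change over the square root of its F statistic. For the genes selected on this contrast they are thus description only. Positions, lengths and the editing site came from GENCODE M21 on GRCm38, with 19325 of 20308 symbols matched. The labels name no litter, batch or sequencing run.

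The 8 genes, the gene lists and the tests were chosen with earlier results of these data known. Named genes are the 8, in each role the tested genes at both ends of the log2 fold change, *Csf1*, and the 3 nearest to *Apob* and *Apoe*. A gene that this rule names is not reported here. Any other gene was named with its values already known. As alternatives served DESeq2 1.42.0, upper-quartile factors, 2 other filters on low counts, limma 3.58.1 (trend, pseudocount 1), a term for animal numbers, no fold threshold, and each mouse left out.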

Additional observations from a re-analysis of the deposited data

Results flagged for a closer look

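Of 48 groups of 4 mice, 1 held a sample far from the others by Dixon's criterion, which chance alone meets in about 1 in 20 groups. *Sar1b* measured 38.5 CPM in CSF1 OE mouse 1931, while the other 3 CSF1 OE mice lay between 44.5 and 45.0 CPM.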

How the results depend on the processing

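The log2 fold change of *Apob* lay between -2.10 and -1.90 over the 14 alternatives, that of *Apoe* between 0.45 and 0.61 and that of *Apobec1* between 0.41 and 0.55. *Mttp* ran from -0.23 to -0.044, the latter without control mouse 1827, and *Abcg1* from 0.058, without CSF1 OE mouse 1932, to 0.30. *Apoe* was called in 2 of the 14 (DESeq2 and the term for animal numbers) and *Apobec1* in 1 (that term). *Abca1*, *Lrp1* and *Nr1h3* changed sign near 0, with ranges from -0.072 to 0.12, from -0.12 to 0.26 and from -0.13 to 0.14. The number of genes called, 59, became 416 with DESeq2 (259 higher, 157 lower), 19 with upper-quartile factors (16 higher, 3 lower), 105 with limma's trend method (88 higher, 17 lower) and 1274 with the term for animal numbers (303 higher, 971 lower). With each mouse left out in turn it ran from 3, without control mouse 1872 or 1874, to 164, without control mouse 1827. It was 10 without control mouse 1934, and 4, 18 and 8 without CSF1 OE mouse 1931, 1932 or 1936. Of the 58 pathway genes, 3 were called with DESeq2, 1 with limma's trend method and 8 with the term for animal numbers (*Npc2* higher, and *Angptl4*, *Apod*, *Lrp1b*, *Lrp8*, *Lsr*, *Pltp* and *Scarf1* lower), and 0 with any mouse left out. *Lipc* reversed to -0.22 with the term for animal numbers and to -0.0027 without CSF1 OE mouse 1936. *Ch25h* ran from -1.08 (without CSF1 OE mouse 1932) to 0.23 with a mouse left out, and reversed to 0.23 without control mouse 1872, 0.070 without CSF1 OE mouse 1936 and 0.068 without CSF1 OE mouse 2019. The cause of these shifts was not tested. With at least 10 counts in every library *Abcg4*, *Olr1* and *Lipc* were not fitted. No paired analysis was possible because the labels give no litter or other pairing of control with CSF1 OE mice.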
